A study of Mus musculus with 4 samples.

Results

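Levels and single-cell co-detection are described for 9 mouse genes of stem and progenitor cells, namely Sox2, Lgr5, Prox1, Sox4, Sox9, Sox11, Msx1, Hmga2 and Bex1, of 28889 genes with at least 1 unique molecular identifier (UMI, a tag that marks 1 captured transcript) in the libraries. The genes were picked because earlier results from these same libraries had shown them high in KLF2 tumours, so their difference between KLF2 and vector tumour cells is given as a description and no p-value is attached to it. The tumours arose in livers of male C57BL/6 mice after plasmids had been forced into the liver through the tail vein (hydrodynamic injection). KLF2 tumours received pT3-EF1α-AKT, pT3-EF1α-KLF2 and pT3-EF1α-c-MYC, and vector tumours received the pT3 empty vector with the same c-MYC and AKT plasmids. Both groups also received SB100X, a transposase that inserts such plasmids into the genome of cells that take them up, and the EF1α promoter drives each transgene without restriction to a cell type. Tumours were taken 10 weeks after injection, at a labelled age of 18 weeks, from mice processed singly. KLF2 replicates 1 and 2 and vector replicate 2 were analysed, and no matrix of vector replicate 1 was analysed here, so 1 vector library stands against 2 KLF2 libraries.

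As background, SOX proteins are transcription factors with an HMG box that bind DNA and act in progenitor cells of many tissues. Sox2 is a factor of pluripotent, neural and foregut progenitors, Sox9 marks bile ducts and ductal progenitors of the liver, and Sox4 takes part in bile duct development in the mouse. Lgr5 is a receptor for R-spondins that strengthens Wnt signalling and is itself a Wnt target, known from intestinal stem cells and from hepatocytes around the central vein. Prox1 is a homeobox factor of early hepatoblasts, hepatocytes and lymphatic endothelium.

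The promoters of the members are shown first because KLF2, the factor added to the tumours, belongs to a family that binds CACCC boxes. RefSeq promoter windows of 300 bases (GRCm38.p6) were found for 7 of the 9 genes, 8 windows in all, since Prox1 has a pair of start sites. The windows of Sox2, of the upstream Prox1 start and of Bex1 are printed 5′ to 3′ with capitals for any match to CACCC (other strand GGGTG) or to CACGTG, the E-box bound by MYC. The Sox2 window lies at chr3:34649745-34650044 on the plus strand, the Prox1 window at chr1:190170778-190171077 on the minus strand and the Bex1 window at chrX:136215464-136215763 on the minus strand.
Sox2: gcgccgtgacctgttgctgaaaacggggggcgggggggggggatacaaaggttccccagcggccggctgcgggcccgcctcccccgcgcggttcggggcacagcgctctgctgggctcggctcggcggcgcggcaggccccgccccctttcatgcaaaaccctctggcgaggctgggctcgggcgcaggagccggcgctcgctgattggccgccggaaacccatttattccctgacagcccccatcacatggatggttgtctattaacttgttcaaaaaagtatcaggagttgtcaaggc
Prox1: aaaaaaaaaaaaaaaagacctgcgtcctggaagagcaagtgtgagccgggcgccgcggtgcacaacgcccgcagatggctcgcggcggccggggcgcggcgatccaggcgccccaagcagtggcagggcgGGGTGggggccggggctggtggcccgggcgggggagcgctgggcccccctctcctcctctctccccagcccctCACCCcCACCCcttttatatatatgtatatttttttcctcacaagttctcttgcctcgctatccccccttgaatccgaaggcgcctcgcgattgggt
Bex1: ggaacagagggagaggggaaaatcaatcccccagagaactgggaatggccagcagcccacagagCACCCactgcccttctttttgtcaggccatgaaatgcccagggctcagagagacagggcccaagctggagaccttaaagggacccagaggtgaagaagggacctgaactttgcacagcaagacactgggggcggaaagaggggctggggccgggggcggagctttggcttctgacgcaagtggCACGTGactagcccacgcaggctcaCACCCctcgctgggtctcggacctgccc
The Sox2 window held no match, the upstream Prox1 window held 3 CACCC matches in total over both strands, and the Bex1 window held 2 CACCC matches and 1 CACGTG match. Over all members, 5 of 8 windows held CACCC on either strand, against 57.5% of 32851 windows of that length. Windows with it were those of Prox1, Sox11, Hmga2 and Bex1, and those of Sox2, Sox4 and Msx1 had none. CACGTG was found in 1 of the 8 windows, that of Bex1, against 7.15% of all windows. Neither CTTTGAT (other strand ATCAAAG), a core of TCF and LEF sites, nor CATTGT (other strand ACAATG), a core of SOX sites, was found in the 8 windows, against 3.73% and 12.6% of all windows. A match is a run of letters and not a measured binding site.

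KLF2 replicates 1 and 2 held 95374838 and 125458473 UMIs in 6282 and 11240 barcodes, and vector replicate 2 held 45594544 UMIs in 12852 barcodes. The median barcode had 8784 and 5724.5 UMIs in the KLF2 libraries and 2373 in the vector library, and mitochondrial UMIs made up a median of 0.227% and 0.350% against 16.3%. Gm42418, which overlaps rRNA, took 12.1% and 15.8% of KLF2 UMIs and 25.6% of vector UMIs. After barcodes under 300 genes or over 25% mitochondrial UMIs had been dropped, 6209 and 11103 KLF2 cells and 8403 vector cells remained. KLF2 replicate 1 shared 550 barcode names with KLF2 replicate 2 and 595 with vector replicate 2, and KLF2 replicate 2 shared 1146 with vector replicate 2. Levels are in CPM, the UMIs of a gene in a cell class of a library for every 1000000 UMIs of all genes there, and intervals cover counting error only.

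Tumour cells were looked for in a compartment made of hepatocyte-lineage-like clusters, biliary keratin (cholangiocyte-like) clusters and unnamed clusters with under 100 CPM of Ptprc, the pan-leukocyte gene. It held 5212 and 8358 cells of KLF2 replicates 1 and 2, which were 83.9% and 75.3% of the kept cells, and 627 vector cells, which were 7.46%. The vector share depends on the Ptprc cutoff. A further unnamed cluster, led by Igkc, held 1104 vector cells and 0 and 1 KLF2 cells. It had 134 CPM of Ptprc, so it is neither in the compartment nor in a named class. The cell types differed between the groups. In KLF2 replicates 1 and 2, 4850 and 7044 compartment cells were unnamed, 342 and 1257 were biliary keratin cells and 20 and 57 were hepatocyte-lineage-like, whereas in vector replicate 2 the numbers were 3, 0 and 624. The 12 hepatocyte-lineage markers, among them Alb and Apoa1, summed to 72.2 and 89.1 CPM in the KLF2 compartments and to 11717 CPM in the vector compartment, with all 12 detected in each. The 8 cholangiocyte markers summed to 591 and 1114 CPM in the KLF2 compartments and to 428 CPM in the vector compartment. The 8 mesenchymal markers summed to 1295 and 364 CPM in KLF2 replicates 1 and 2 and to 250 CPM in vector replicate 2, and the 6 neuroendocrine markers to 13.4 and 7.38 CPM against 0.625 CPM. The labelled hepatocellular identity was therefore not met by most KLF2 compartment cells. A difference between KLF2 and vector cannot be told apart from this difference in cell type.

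The counts of Myc, Akt1 and Klf2 do not tell injected from endogenous transcripts. The sources used here do not say whether injected ones were counted. Myc had 685 and 478 CPM in the KLF2 compartments and 47.2 CPM in the vector compartment, and Akt1 had 1273 and 735 CPM against 274 CPM. Klf2 had 326 and 380 CPM against 147 CPM. Whether the vector compartment cells carry the injected plasmids was not tested.

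Sox2 (ENSMUSG00000074637.7, GRCm38 chromosome 3, 34650405 to 34652461, plus strand), the pluripotency and foregut factor, stood at 89.3 CPM in KLF2 replicate 1 (7574 UMIs) and 84.8 CPM in KLF2 replicate 2 (9100 UMIs), against 0.625 CPM in vector replicate 2 (2 UMIs). The KLF2 libraries were 143-fold (95% interval 39.6 to 1181) and 136-fold (37.6 to 1122) above the vector library. Both KLF2 libraries were high and close to each other, and the 2 vector UMIs came from the 3 unnamed vector cells, since the 624 vector hepatocyte-lineage-like cells held none. With each cell thinned to 1000 UMIs, 7.41% and 6.63% of KLF2 compartment cells and 0 of 604 vector cells had a Sox2 UMI, and the count of 0 allows a share of up to 0.497%, a limit on cells with a UMI at that depth and not on cells that express the gene. T/NK-like cells, for which Sox2 is not a known marker, had a UMI of it in 2.17% and 2.02% of the KLF2 cells and in 0 of 3334 vector cells. Neutrophil-like cells of the KLF2 libraries came closer to the compartment, at 81.0 and 61.7 CPM of Sox2, with no UMI in 72 vector cells. The gene lies inside Sox2ot on the same strand, and Sox2ot itself stood at 45.3 and 60.3 CPM in the KLF2 compartments with no UMI in the vector compartment. The sources used here do not say how reads were split between the pair.

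Lgr5 (ENSMUSG00000020140.15, chromosome 10, 115450311 to 115587780, minus strand), the R-spondin receptor, had 56.0 and 49.1 CPM in the KLF2 compartments (4751 and 5262 UMIs) against 0.312 CPM in the vector compartment (1 UMI). The ratios were 179-fold (32.2 to 7089) and 157-fold (28.2 to 6205), with intervals as wide as a single vector UMI makes them. The mean log2 ratio of 7.39 was 5.0 with at most 10% mitochondrial UMIs and 5.74 at Leiden resolution 0.5. At 1000 UMIs per cell, 6.18% and 5.07% of KLF2 compartment cells had Lgr5, against 0 of 604 vector cells. In T/NK-like cells the share was 0% and 1.52% in the KLF2 libraries and 0.03% in the vector library.

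Prox1 (ENSMUSG00000010175.13, chromosome 1, 190118035 to 190170714, minus strand), the hepatoblast and lymphatic homeobox factor, stood at 275 and 395 CPM in KLF2 replicates 1 and 2, against 13.4 CPM (43 UMIs) in the vector compartment. That was 20.5-fold (15.2 to 28.3) and 29.4-fold (21.8 to 40.6) higher. In vector hepatocyte-lineage-like cells Prox1 had 39 UMIs in 32 of 624 cells, where Sox2 had none and Lgr5 had 1. At 1000 UMIs per cell, 22.1% and 27.7% of KLF2 compartment cells and 1.32% of vector compartment cells had a Prox1 UMI, while T/NK-like cells had one in 6.52%, 7.58% and 0.180%. Prox1os, transcribed from the opposite strand across the gene, had 37.5 and 57.4 CPM in KLF2 and 2.50 CPM in vector. The sources used here do not say whether counting used strand, so reads of the overlapping pair may be mixed.

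Sox4 (ENSMUSG00000076431.4, chromosome 13, 28948919 to 28953713, minus strand), a SOX factor of bile duct and many other progenitors, had 275 and 304 CPM in the KLF2 compartments and 74.0 CPM (237 UMIs) in the vector compartment. The ratios of 3.72 (3.27 to 4.24) and 4.10 (3.61 to 4.68) were small beside those of Sox2 and Lgr5, and 85 of 627 vector cells had the gene. Sox11 (ENSMUSG00000063632.6, chromosome 12, 27334264 to 27342574, minus strand), a close relative of Sox4 best known from neural progenitors, had 109 and 71.6 CPM in KLF2 against 1.56 CPM (5 UMIs) in vector. Its ratios were 69.7 (29.9 to 215) and 45.8 (19.6 to 141), a mean log2 ratio of 5.82 that was 1.90 at Leiden resolution 2.0, where 128 unnamed vector cells were in the compartment.

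Sox9 (ENSMUSG00000000567.5, chromosome 11, 112782224 to 112787760, plus strand), the bile duct factor, was the member whose direction in the compartment depended on the scaling. It had 36.8 CPM in each KLF2 compartment and 26.2 CPM (84 UMIs) in the vector compartment, a ratio of 1.40 (1.13 to 1.76) in both. With TMM scaling, which sets the libraries level on the bulk of genes, its fitted log2 difference was -0.21 (SE 0.22), and it was below 0 in the other fits as well. Without mitochondrial and rRNA-overlapping genes the mean log2 ratio was -0.17. No direction is given for Sox9 in the compartment as a whole, and the other 8 members were above vector with each scaling tried (CPM, TMM, RLE, DESeq2 and CPM without mitochondrial and rRNA-overlapping genes).

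Msx1 (ENSMUSG00000048450.10, chromosome 5, 37820485 to 37824583, minus strand), a homeobox factor downstream of BMP signals in limb and craniofacial mesenchyme, had 199 and 98.2 CPM in KLF2 replicates 1 and 2, against 1.87 CPM (6 UMIs) in vector replicate 2. The ratios were 106 (48.8 to 290) and 52.4 (24.1 to 143), and 1 of the 6 vector UMIs lay in a hepatocyte-lineage-like cell. The mean log2 ratio of 6.22 was 2.77 at Leiden resolution 2.0 and 8.91 without the clusters led by Hbb-bs and Malat1. Msx1 thus differed between the KLF2 libraries more than Sox2 or Lgr5 did. Hmga2 (ENSMUSG00000056758.14, chromosome 10, 120361275 to 120476469, minus strand), a chromatin-bound protein of embryonic cells, had 11.4 and 18.8 CPM in KLF2 and no UMI in the vector compartment. Against a floor of 3 UMIs in the vector compartment it was at least 12.2-fold and 20.03-fold higher. Bex1 (ENSMUSG00000050071.8, chromosome X, 136213972 to 136215513, minus strand), a small adaptor protein known from neurons, had 403 and 331 CPM against 4.37 CPM (14 UMIs). It was 92.1-fold (54.9 to 168) and 75.7-fold (45.1 to 138) higher.

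**Figure D1:**
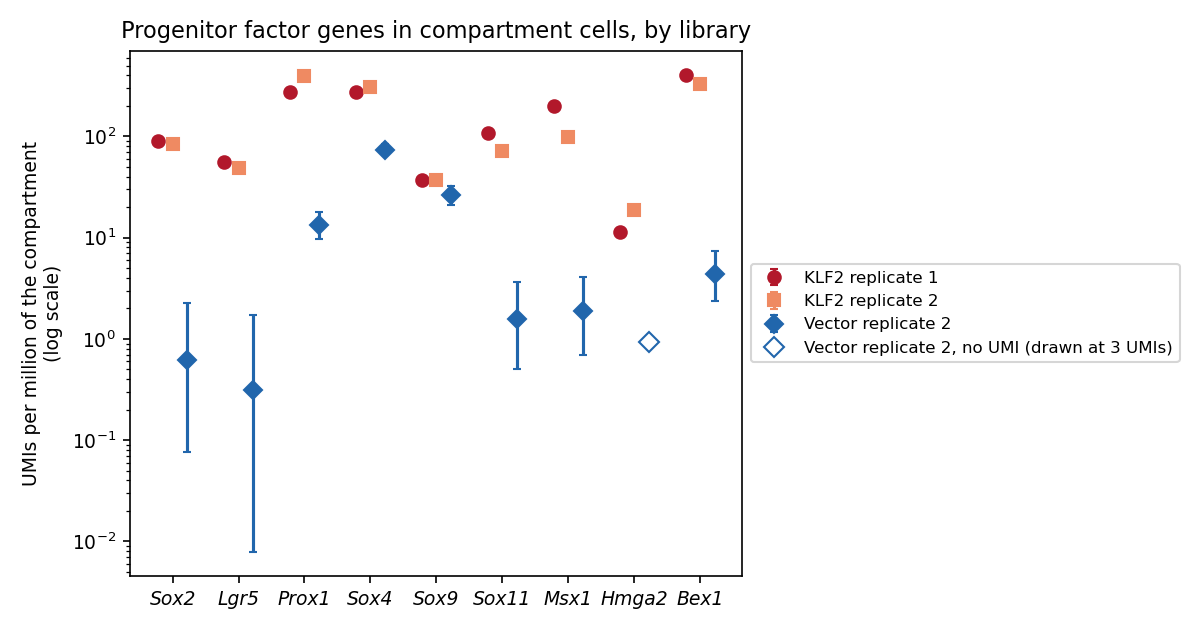
Level of each of the 9 genes in compartment cells (CPM, log axis), with 1 point per library, KLF2 replicates 1 and 2 before vector replicate 2, and 95% counting intervals as bars. The open vector point of Hmga2 stands for no UMI and is drawn at 3 UMIs. The KLF2 points of 8 genes lie well above the vector point, whereas for Sox9 36.8 CPM in each KLF2 library stands near 26.2 CPM in the vector library.

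Hepatocyte-lineage-like cells formed a single cluster, of which KLF2 replicates 1 and 2 held 20 and 57 cells and vector replicate 2 held 624. At Leiden resolution 2.0 they fell into a cluster led by Clu, with 10 and 49 KLF2 cells and 30 vector cells, and a cluster led by Fabp1, with 10 and 8 KLF2 cells and 594 vector cells. The values that follow therefore set unlike cells of the class beside each other, above all for KLF2 replicate 2. Their hepatocyte markers summed to 19014 and 8694 CPM in KLF2 and 11779 CPM in vector, and their cholangiocyte markers to 1416 and 5209 CPM in KLF2 and 431 CPM in vector, so the KLF2 cells had more biliary transcripts. Prox1 had 148 CPM (11 UMIs) and 129 CPM (63 UMIs) in the KLF2 cells, against 12.2 CPM (39 UMIs) in the vector cells, which was 12.1-fold (5.59 to 24.1) and 10.6-fold (6.97 to 16.2) higher. Bex1 was 26.4-fold (9.49 to 68.8) and 29.7-fold (16.1 to 59.0) higher, with 108 and 121 CPM against 4.08 CPM. For comparison, Prox1 had 49.0 and 79.8 CPM in T/NK-like and 262 and 219 CPM in neutrophil-like cells of KLF2 replicates 1 and 2. Bex1 had 67.2 and 61.7 CPM in T/NK-like and 145 and 110 CPM in B/plasma-like cells there. How much of these levels is RNA from other cells was not tested. Sox9 stood at 40.5 CPM (3 UMIs) in KLF2 replicate 1 and 185 CPM (90 UMIs) in KLF2 replicate 2, against 26.4 CPM (84 UMIs) in vector. The KLF2 replicate 2 value was 7.01-fold (5.15 to 9.55) above vector and the KLF2 replicate 1 value 1.53-fold (0.310 to 4.64), which does not separate from no difference at that depth. Sox4 had 108 and 263 CPM in KLF2 and 73.5 CPM in vector, with ratios of 1.47 (0.626 to 2.94) and 3.58 (2.86 to 4.46).

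Sox2 and Lgr5 were sparse in hepatocyte-lineage-like cells. Sox2 had 0 and 9 UMIs in the KLF2 cells and 0 in the vector cells, and Lgr5 had 1 and 11 UMIs against 1. Their levels in KLF2 replicate 2, 18.5 CPM for Sox2 and 22.6 CPM for Lgr5, compare with 14.3 and 8.72 CPM in T/NK-like cells of that library. Msx1 had 3 and 11 UMIs against 1, Sox11 had 2 and 9 against 3, and Hmga2 had 1 and 2 against 0. The share that free RNA from neighbouring cells has in these counts was not tested.

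Biliary keratin cells, which were seen in KLF2 libraries and in 0 of 8403 vector cells, were set beside the unnamed compartment cells of the same library. They carried more Sox9, at 74.1 and 62.4 CPM in KLF2 replicates 1 and 2, against 33.3 and 27.4 CPM in unnamed cells, a ratio of 2.23 (2.03 to 2.45) and 2.28 (2.13 to 2.43). Sox4 was 2.02-fold (1.95 to 2.09) and 1.79-fold (1.75 to 1.83) higher, Hmga2 1.75-fold and 1.71-fold, and Sox2 1.5-fold (1.40 to 1.6) and 1.66-fold (1.59 to 1.74). Other members ran the opposite way in both libraries. Msx1 had ratios of 0.177 (0.157 to 0.200) and 0.216 (0.200 to 0.233), Sox11 0.465 and 0.464, Lgr5 0.495 (0.429 to 0.568) and 0.477 (0.440 to 0.516), and Bex1 0.679 and 0.863. Prox1 did not keep a direction, with 1.10 (1.05 to 1.15) and 0.928 (0.908 to 0.949). The intervals describe counts within a library, and the clusters were made from the expression of these same cells, so no test was made. The cholangiocyte markers of the biliary keratin cells summed to 3348 and 2756 CPM and their hepatocyte-lineage markers to 76.6 and 96.0 CPM.

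**Figure D2:**
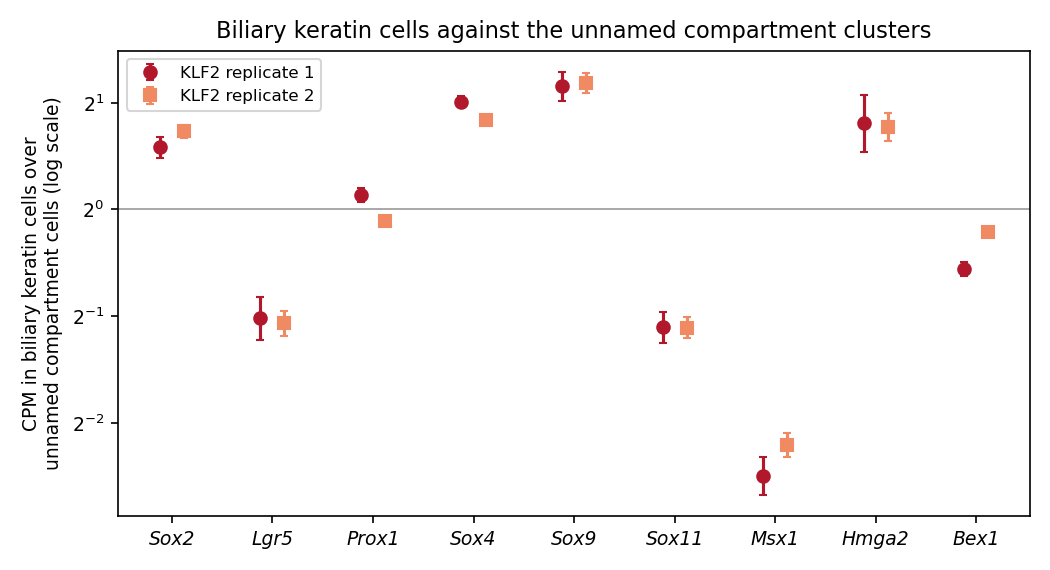
Ratio of the level in biliary keratin cells to that in unnamed compartment cells (log axis, 95% counting intervals) for each gene, 1 point for each KLF2 library. Sox9, Sox4, Hmga2 and Sox2 lie above 1 in both libraries and Bex1, Lgr5, Sox11 and Msx1 below 1.

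Within the KLF2 compartment the members were spread unevenly over 9 unnamed clusters and the biliary keratin cells, and the order of clusters was much alike in the KLF2 libraries. Spearman's rho between KLF2 replicates 1 and 2 over these 10 units was 0.976 for Prox1, 0.939 for Sox11, 0.927 for Hmga2, 0.903 for Sox2 and for Sox9, 0.855 for Msx1, 0.842 for Lgr5 and for Sox4, and 0.745 for Bex1. The libraries were clustered together, so these values describe and do not test. Lgr5 was most abundant in a cluster led by Cdan1 (71 and 260 cells), at 433 and 183 CPM, and in a cluster led by the neural adhesion gene Lsamp (261 and 426 cells), at 314 and 251 CPM. Both stood far above the 29.0 and 27.0 CPM of biliary keratin cells. Prox1 was likewise high in the Lsamp-led cluster, at 778 and 612 CPM, and low in a cluster led by Ldhb (501 and 100 cells), at 76.0 and 86.7 CPM.

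Sox2 did not follow Lgr5 over the clusters. Its level was 144 and 99.2 CPM in the cluster led by the nuclear RNA Malat1 (425 and 1399 cells), 117 and 143 CPM in the Ldhb-led cluster and 128 and 122 CPM in biliary keratin cells. It was 32.9 and 18.9 CPM in the cluster led by the bone matrix gene Ibsp (867 and 419 cells) and 15.96 and 27.5 CPM in the cluster led by the defensin Defa21 (52 and 177 cells). Sox9 had 117 and 114 CPM in Defa21-led cells, 80.1 and 60.2 CPM in Ibsp-led cells, and 11.1 and 13.6 CPM in cells led by Cntn4 (778 and 823 cells). Sox4 had 510 and 455 CPM in biliary keratin cells and 471 and 307 CPM in Malat1-led cells.

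Hmga2 and Msx1 were high in different clusters. Hmga2 had 182 and 177 CPM in the Cdan1-led cluster, 51.1 and 47.6 CPM in Malat1-led cells and 1.68 and 4.65 CPM in the cluster led by the metallothionein Mt3 (1364 and 1593 cells). Msx1, which is itself among the leading genes of the Mt3-led cluster, had 327 and 175 CPM there, 299.8 and 154 CPM in Cntn4-led cells and 19.6 and 20.2 CPM in the Cdan1-led cluster. Bex1 had 538 and 416 CPM in Mt3-led cells and 82.9 and 80.2 CPM in Cdan1-led cells. Sox11 had 136 and 157 CPM in Ldhb-led and 133 and 77.5 CPM in Lsamp-led cells. The cluster led by Hbb-bs, a blood gene, held 531 and 1847 KLF2 cells and the 3 unnamed vector cells.

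**Figure D3:**
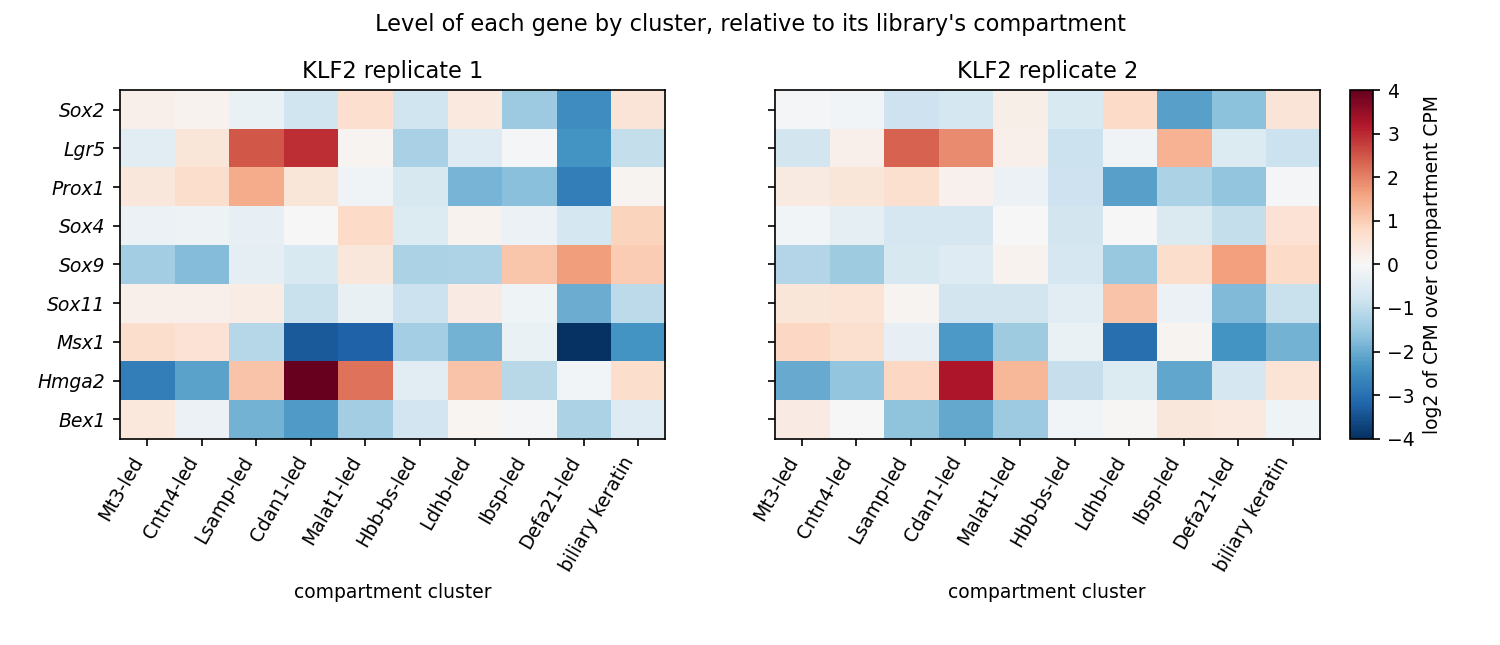
Level of each gene in the 9 unnamed clusters and the biliary keratin cells of KLF2 replicates 1 and 2, hepatocyte-lineage-like cells not drawn, as log2 of the ratio to that library's compartment level, shown as colour, with units named by their leading gene. Among the units drawn, in both libraries Hmga2 is highest in Cdan1-led, Msx1 in Mt3-led, Sox9 in Defa21-led and Prox1 in Lsamp-led cells, while Lgr5 is highest in Cdan1-led cells of KLF2 replicate 1 (433 CPM) and Lsamp-led cells of KLF2 replicate 2 (251 CPM).

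Co-detection was counted in cells thinned to 5000 UMIs each, 3690 and 4878 compartment cells of KLF2 replicates 1 and 2 and 200 of vector replicate 2. The 1522, 3480 and 427 shallower compartment cells were left out. At this depth Sox2 was found in 26.7% and 27.4% of KLF2 cells and 0% of vector cells, Lgr5 in 19.1% and 16.7% against 0.5%, and Prox1 in 57.0% and 70.3% against 6%. Sox4 was found in 62.0% and 63.5% against 22% and Sox9 in 11.8% and 13.6% against 5.50%. In T/NK-like cells of the KLF2 libraries (48 and 101 cells at that depth) the shares were 8.33% and 5.94% for Sox2, 0% and 3.96% for Lgr5, 16.7% and 24.8% for Prox1, and 14.6% and 26.7% for Sox4. The compartment shares were above those of T/NK-like cells for each of these genes. For neutrophil-like cells, with 11 and 12 KLF2 cells at that depth, shares are not given. The median KLF2 compartment cell held 3 of the 9 genes in each library, and the median vector cell held 0. No member was found in 2.14% and 2.54% of KLF2 cells and in 72.5% of vector cells, and 4 or more members were found in 39.3% and 37.2% against 1%. No cell held all 9, and the most in 1 cell was 8 in each KLF2 library and 4 in vector.

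Cells with both Sox2 and Lgr5 were near the number that the single shares give, above it in KLF2 replicate 1 and below it in KLF2 replicate 2. Both were detected in 194 cells of KLF2 replicate 1, where 188 would be met if the genes were spread independently, and in 213 cells of KLF2 replicate 2, where 224 would be. The odds ratios were 1.06 and 0.921, and 1.10 and 1.04 within clusters. Sox2 and Prox1 were together in 646 cells against 562 by independence and in 1003 cells against 940, with odds ratios of 1.63 and 1.38 that were 1.35 and 1.21 within clusters. Lgr5 and Prox1 had odds ratios of 1.53 and 1.01, or 1.36 and 1.08 within clusters. Cells of a library share their source, so these are descriptions of each library.

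All of Sox2, Lgr5 and Prox1 were found in 135 cells of KLF2 replicate 1, or 3.66% (Wilson 95% interval 3.10 to 4.31), and in 152 cells of KLF2 replicate 2, or 3.12% (2.66 to 3.64). Independence gives 107 and 157. In vector replicate 2 there were 0 of 200 such cells. Cells with the 3 genes made up 11.2% of the Lsamp-led cluster in KLF2 replicate 1 (15 of 134) and 8.65% in KLF2 replicate 2 (16 of 185), where independence within the cluster gives 12.2 and 17.1 cells. They were 6.79% and 4.79% of Cntn4-led cells and 2.72% and 2.24% of biliary keratin cells. They were 0 of 48 and 1 of 101 T/NK-like cells and 2 of 393 and 1 of 850 myeloid-like cells in the KLF2 libraries. Among 27 hepatocyte-lineage-like cells of KLF2 replicate 2 there was none.

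Of the 36 pairs of members, 20 had an odds ratio over 1 in both KLF2 libraries and 9 under 1 in both, with a range of 0.369 to 2.12 and a median of 1.11. The pairs with the highest values joined Bex1, Msx1 and Sox11. Msx1 and Bex1 reached 2.12 and 2.04, Sox11 and Bex1 1.57 and 2.07, and Sox11 and Msx1 1.41 and 1.99. Each was lower within clusters, at 1.49 and 1.44, 1.35 and 1.64, and 1.15 and 1.34 in the same order. Among the SOX genes, Sox2 with Sox4 reached 1.56 and 1.5 and Sox4 with Sox9 1.36 and 1.71.

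Msx1 and Hmga2 were the pair with the lowest odds ratio in each library, 0.369 and 0.473. They were found together in 39 cells against 76.9 by independence and in 66 against 114. Within clusters the ratios were 0.945 and 0.943. Hmga2 and Bex1 had 0.528 and 0.678 over the compartment and 0.933 and 1.28 within clusters. Within clusters, 22 of 36 pairs were over 1 in both libraries and 1 was under 1 in both. Without thinning, 35 pairs were over 1 and none under 1, and the median odds ratio was 2.82.

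**Figure D4:**
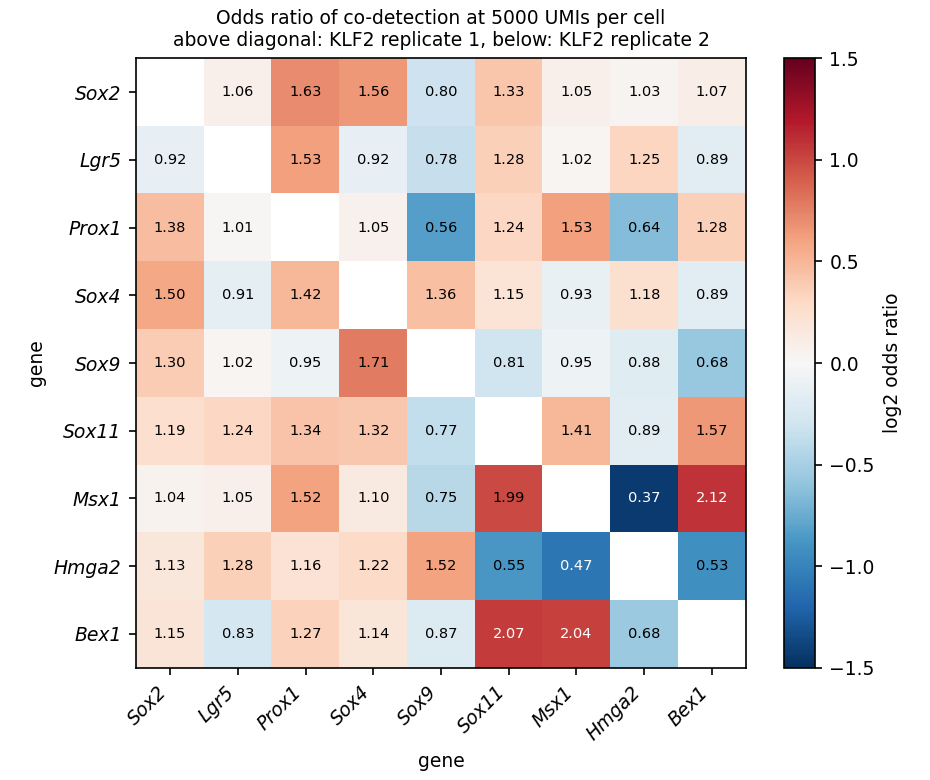
Odds ratio of co-detection for the 36 gene pairs in compartment cells thinned to 5000 UMIs, with log2 of the ratio as colour and the ratio in each cell, with KLF2 replicate 1 above the diagonal and KLF2 replicate 2 below it. Msx1 with Bex1 is highest in KLF2 replicate 1 (2.12), Sox11 with Bex1 in KLF2 replicate 2 (2.07), and Msx1 with Hmga2 is lowest in both (0.369 and 0.473).

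In hepatocyte-lineage-like cells of KLF2 replicate 2 (27 cells at 5000 UMIs), Sox9 was found in 51.9% and Sox4 in 63.0%, against 5.53% and 21.6% of the 199 vector cells of that class. In biliary keratin cells Sox4 was found in 80.6% and 79.7%, Sox2 in 36.4% and 36.6%, Sox9 in 23.1% and 23.8% and Lgr5 in 8.50% and 10.7% of KLF2 replicates 1 and 2.

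The same genes were then tested in the classes of cells outside the compartment, on which the choice of genes had not rested, with the edgeR quasi-likelihood test on UMIs summed per library. The vector side is 1 library that was assumed to vary like the KLF2 libraries, with 1 residual degree of freedom, and the adjusted p is Benjamini-Hochberg over all genes of the class. Of 54 combinations of 9 genes and 6 classes, 48 passed the filter on low counts and 40 were higher in KLF2. Of the 48, 41 reached the filter's cutoff of 10 UMIs at the median library size through KLF2 libraries only, and 37 of these were higher. Such a gene could hardly be called otherwise, and the genes were picked as high in KLF2, so these counts are descriptions and support nothing. Of the 7 combinations for which the vector library itself reached the cutoff, 3 were higher (Sox4 in T/NK-like, myeloid-like and B/plasma-like cells) and 4 did not pass (Sox4 in endothelial-like and mesenchymal-like cells, Sox11 and Msx1 in endothelial-like cells).

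Most classes also lay in different clusters in the groups. The cluster with 90 and 395 KLF2 T/NK-like cells held 0 vector cells, and those with 2563 and 867 vector cells held at most 1 cell of either KLF2 library. Endothelial-like cells were 92 and 225 KLF2 cells in a cluster with 0 vector cells, and 1459 and 337 vector cells in clusters with 3 and 7 KLF2 cells each. B/plasma-like cells were 100 and 144 KLF2 cells with 2 vector cells, and 294 vector cells with 0 KLF2 cells. Myeloid-like clusters led by Mmp12, Plac8 and Saa3 held KLF2 cells with 0 vector cells, and the one led by H2-Ab1 held 2 and 2 KLF2 cells and 715 vector cells. A difference within these classes cannot be told apart from a difference between such clusters.

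The counts per class carry the same limit. Members that reached the cutoff through KLF2 libraries only were 7 of 8 in T/NK-like, 8 of 9 in myeloid-like and 8 of 9 in mesenchymal-like cells. They were 6 of 9 in endothelial-like, 6 of 7 in B/plasma-like and 6 of 6 in neutrophil-like cells. How many of all genes did so was not counted, so the shares of all genes are no baseline for the members. In T/NK-like cells 8 of 8 tested members rose, where 11% of all genes tested were higher and 8.67% lower. In myeloid-like cells 9 of 9 rose (13.7% of all genes higher and 8.27% lower). In mesenchymal-like cells 8 of 9 rose (11.1% higher and 9.07% lower) and in endothelial-like cells 6 of 9 (14.4% higher and 14% lower). In B/plasma-like cells 5 of 7 rose (8.42% higher and 7.85% lower) and in neutrophil-like cells 4 of 6 (6.3% higher and 4.89% lower). No member passed the adjusted threshold as lower with these settings or in DESeq2. Sox11 in endothelial-like cells was the 1 member lower at an unadjusted p under 0.05, and it passed the adjusted threshold without the filter on low counts. With DESeq2, 27 of the 40 calls remained and 13 did not.

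Leukocyte-like cells of the KLF2 libraries held UMIs of the members too. Prox1 had 49.0 and 79.8 CPM in T/NK-like cells of KLF2 replicates 1 and 2, against 0.907 CPM in vector replicate 2, a log2 difference of 5.94 (SE 0.49). Sox2 had 16.3 and 14.3 CPM there and no UMI in 3430 vector cells. Set against the compartment of the same library, the T/NK-like levels of the 9 genes were 6.48% to 24.7% (median 16.7%) in KLF2 replicate 1 and 15.7% to 29.9% (median 18.6%) in KLF2 replicate 2. In myeloid-like cells they were 12.2% to 26.2% (median 16.4%) and 25.1% to 34.7% (median 29.8%). Neutrophil-like cells, 57 and 141 cells with median depths of 2642 and 1891 UMIs, had medians of 63.8% and 39.0%, with Prox1 at 262 and 219 CPM against 6.92 CPM in vector. Their levels ran from 11.5% to 101% in KLF2 replicate 1 and from 28.2% to 101% in KLF2 replicate 2. Sox2 stood at 90.7% and 72.7% of the compartment level in these cells. Compartment cells were 83.9% and 75.3% of the KLF2 libraries and 7.46% of the vector library. The part of free RNA and of doublets in the levels outside the compartment was not tested.

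A few members outside the compartment did not keep to these fractions. In mesenchymal-like cells (85 and 175 KLF2 cells, 355 vector cells) Sox9 had 48.7 and 65.2 CPM against 4.90 CPM, which was 132% and 177% of the compartment level of the same library. The log2 difference was 2.90 (SE 0.58). Hmga2 had 22.9 and 23.4 CPM and no UMI in vector mesenchymal-like cells, at 201% and 125% of the compartment level. Both genes were therefore denser in mesenchymal-like than in compartment cells of the KLF2 libraries. At Leiden resolution 2.0 these cells were split by group. A cluster led by Col3a1 held 74 and 158 KLF2 cells and 1 vector cell, and a cluster led by Tagln, Acta2 and Rgs5 held 11 and 19 KLF2 cells and 354 vector cells, so the differences of Sox9 and Hmga2 cannot be told apart from this difference in cells.

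Sox4 was present in vector stroma as well as in KLF2 stroma. In endothelial-like cells it had 187 and 180 CPM in KLF2 against 176 CPM in vector (log2 difference -0.33, SE 0.30, edgeR adjusted p = 0.454), and in mesenchymal-like cells 190 and 229 CPM against 116 CPM (0.23, SE 0.44, adjusted p = 0.793). Neither passed the test, which does not show that the levels are equal. In endothelial-like cells the direction of Sox4 depended on the scaling, since both KLF2 levels in CPM were above vector and the fitted difference was below 0. Sox11 in endothelial-like cells had 17.7 and 20.8 CPM in KLF2 against 27.3 CPM in vector (log2 difference -0.87, SE 0.36, edgeR adjusted p = 0.0556). Msx1 there had 15.7 and 21.5 CPM against 12.6 CPM (0.21, SE 0.42, adjusted p = 0.767). These are levels that vector endothelial-like cells carried and vector compartment cells, with 1.56 CPM of Sox11 and 1.87 CPM of Msx1, hardly did.

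**Figure D5:**
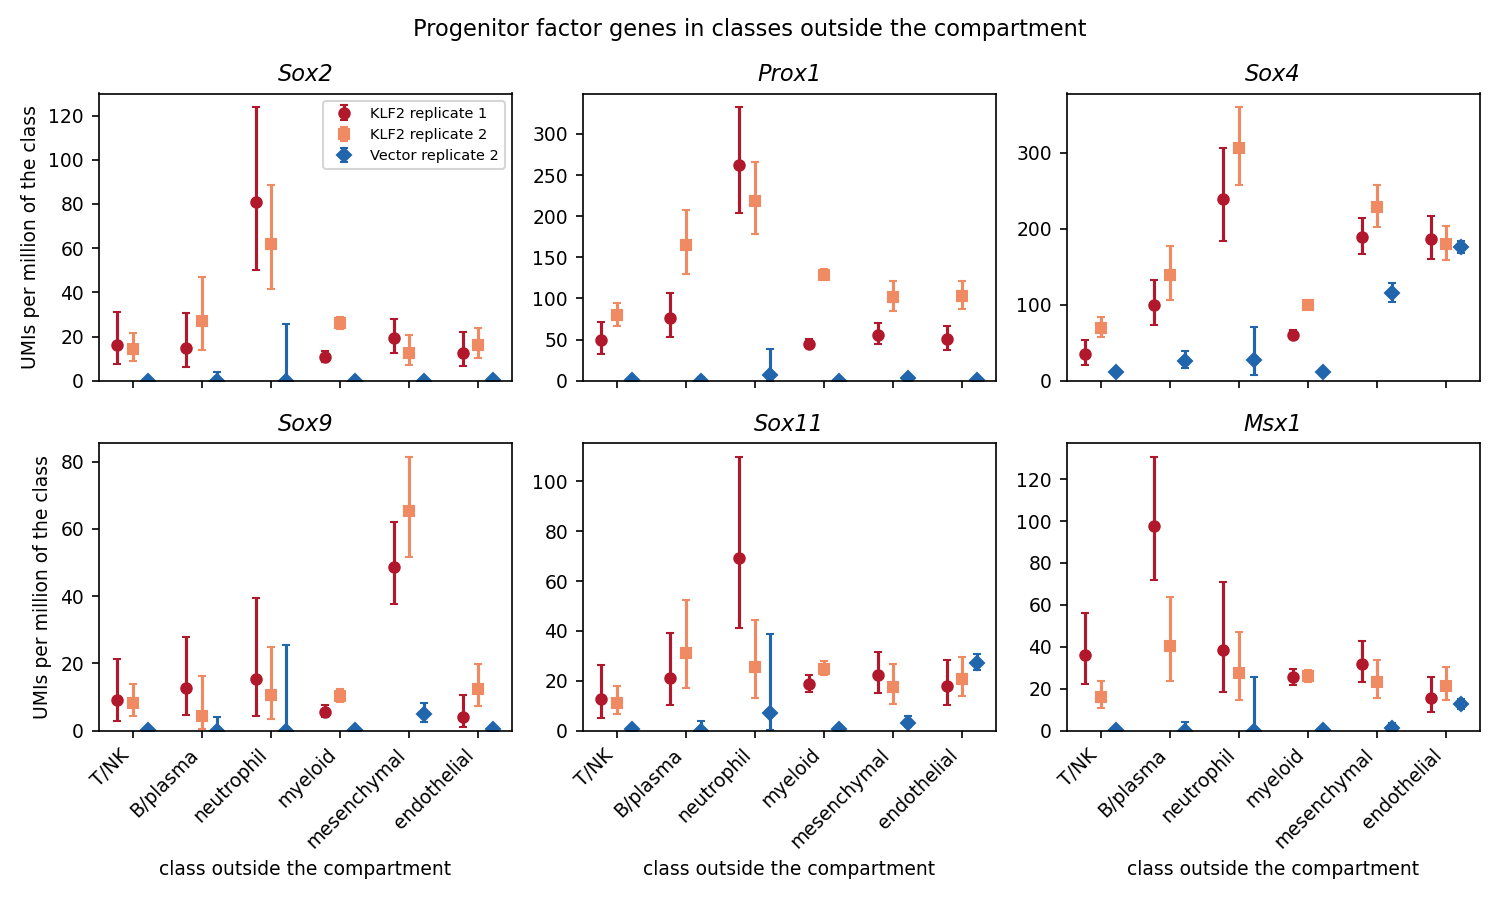
Level (CPM) of 6 of the genes in the 6 classes outside the compartment, 1 point per library, KLF2 replicates 1 and 2 before vector replicate 2, with 95% counting intervals as bars. KLF2 points lie above vector in most classes, Sox9 peaks in KLF2 mesenchymal-like cells (48.7 and 65.2 CPM), and for Sox11 the endothelial-like vector point (27.3 CPM) is the higher one.

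Other genes of the same pathways were read in the compartment, where 12.9% of the 20447 genes tested with edgeR were higher and 10.3% were lower. Their lists were assembled with earlier results of these libraries known, so the calls are no independent evidence of a direction. Some genes stand in more than 1 list, such as Lgr6, Znrf3 and Rnf43 in both Wnt lists and Cd24a, Prom1 and Epcam in the oncofetal and biliary lists. The median of log2 CPM ratios, with a floor of 3 UMIs for a vector count of 0, was 0.47 over all genes tested. Of 15 tested Wnt targets 12 were higher and 3 did not pass (median 4.31), among them the feedback inhibitors Nkd1 with 666 and 597 CPM in KLF2 against 9.37 CPM in vector (log2 difference 5.38, edgeR adjusted p = 0.00481), Apcdd1 with 429 and 347 CPM against 8.12 CPM and Notum with 342 and 386 CPM against 11.9 CPM. Ccnd1, which drives the cell cycle, had 415 and 299 CPM against 69.6 CPM. Of 24 receptors and partners of Lgr5, 12 were higher and 12 did not pass (median 2.52). They included Znrf3, the ubiquitin ligase that R-spondins and Lgr5 act upon, with 125 and 154 CPM against 3.12 CPM, and the nuclear effectors Ctnnb1 (441 and 393 against 85.6 CPM), Tcf7 (159 and 123 against 16.9 CPM) and Lef1 (126 and 126 against 4.06 CPM).

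Genes around Msx1 and Bex1 were also higher. Of 16 tested MSX, DLX and BMP genes 11 were higher and 5 did not pass (median 3.85), with the BMP target Id3 at 1222 and 1127 CPM in KLF2 against 57.2 CPM in vector, Id1 at 511 and 439 against 24.4 CPM, the ligand Bmp4 at 295 and 263 against 9.99 CPM and the inhibitor Smad7 at 239 and 309 against 25.3 CPM. Of 8 tested BEX and TCEAL genes 5 were higher (median 2.76), such as Tceal9 at 413 and 340 against 55.9 CPM and Bex3 at 188 and 154 against 19.4 CPM. Bex and Tceal genes are related in sequence, and whether reads were shared among any of them was not tested. Of 12 tested other SOX genes 4 were higher (median 1.21), namely Sox6 at 90.5 and 82.9 against 1.56 CPM, Sox21 at 26.7 and 37.3 CPM with no vector UMI, Sox13 and Sox5. Of 6 tested pluripotency partners of Sox2, Klf4 (208 and 289 against 26.9 CPM) and Esrrb (3.70 and 6.2 CPM with no vector UMI) were higher (median 0.51). Pou5f1, at 0.130 and 0.0653 CPM, and Nanog, at 0.189 and 0.280 CPM, had no vector UMI either and did not pass the test.

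Liver factors were more often lower than higher. Of 16 liver development factors 8 were lower and 2 higher (median -2.86). Hnf4a, the central hepatocyte factor, had 0.330 and 1.43 CPM in KLF2 against 47.5 CPM in vector (log2 difference -6.43, edgeR adjusted p = 0.0136), and Onecut2 had 1.89 and 4.63 against 35.9 CPM. Foxa2, shared by liver and foregut progenitors, was higher at 51.2 and 59.9 against 6.87 CPM, as was Tbx3 at 115 and 127 against 19.7 CPM. Among 16 tested oncofetal and RNA-binding genes 4 were higher and 2 lower (median -0.25, although the fitted log2 differences have a median of 2.63). H19, a fetal liver RNA, had 5.25 and 2.42 CPM in KLF2 against 537 CPM in vector, while the surface proteins Cd24a (240.1 and 269 against 15.6 CPM) and Prom1 (34.8 and 57.7 against 1.87 CPM) were higher. Epcam was higher at 101 and 176 against 22.5 CPM (edgeR adjusted p = 0.0492) and lost its call in 3 other settings.

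Of 16 Notch and biliary genes 9 were higher and 1 lower (median 2.95). Krt7, a keratin of bile ducts, had 229 and 366 CPM in KLF2 against 10.9 CPM in vector, and the Notch target Hes1 had 218 and 236 against 22.5 CPM. Spp1 was lower, at 60.8 and 129 against 322 CPM. Of 10 tested neural and neuroendocrine genes, 2 were higher, among them Tubb3 at 38.3 and 18.9 CPM in KLF2 against 0.312 CPM in vector. The median of that list was -0.39, against 6.75 for fitted differences, since vector held no UMI of 6 of the 10.

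The genes most like Sox2, Lgr5 and Prox1 were ranked over 40 sums of a class or cluster in a library with at least 50 cells, which share libraries and free RNA, among 11615 genes. By Pearson's r of log2(CPM + 5), Sox2 was nearest to Fgf3 (0.931), Grpel2, Fgfrl1, Foxa2 and Rac3. Lgr5 was nearest to Mpped2 (0.95), Mboat2, Frem2, Dpp6 and Rbm20. The nearest genes to Prox1 included Adcy1 (0.967), Notum, Spock2 and Nkd1, with a pair of Wnt feedback inhibitors from the list of Wnt targets among them. The 40 sums include vector sums, so r also holds the difference between the groups. Over the 33 KLF2 sums alone, r was 0.850 for Sox2 with Fgf3, 0.911 for Lgr5 with Mpped2 and 0.941 for Prox1 with Adcy1. Prox1 had 0.820 with Notum and 0.805 with Nkd1 there. In single cells at 5000 UMIs the likeness was weak. The phi coefficients of the nearest gene, the lower of the KLF2 libraries, were 0.113 for Sox2 with Foxa2, 0.123 for Lgr5 with Maml3 and 0.191 for Prox1 with Fxyd6.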

How the data were processed

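Single-cell RNA libraries of tumours were made with DNBelab C Series droplets, per the labels' protocols. The matrices the authors deposited hold whole UMI counts for each gene in each barcode, without normalisation. They were written by PISA 1.0, per the file headers, on GRCm38, per the submitters' processing notes. The sources used here do not give the aligner, annotation, use of strand or rule for calling cells. Gene positions are from GENCODE vM21 (GRCm38) and promoters from RefSeq (GRCm38.p6).

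Barcodes under 300 genes or over 25% mitochondrial UMIs were dropped. Scrublet in scanpy 1.11.5 called 0 doublets in each library, so it had not worked, and an alternative left out the 5% of cells with the highest scores. Each cell was scaled to 10000 UMIs, and 2000 variable genes, 30 principal components, 15 neighbours and Leiden clustering (leidenalg 0.10.2, resolution 1.0) were used. Clusters were named from marker lists with a mean log2 change of at least 1.0 at a prior of 20 CPM, a lead of 0.5 and 3 raised markers found in 25% of cells. For clusters with under 100 CPM of Ptprc, a change of 1.5 and a marker among the top 10 genes were required, a rule set after seeing the data. Of the 9 members, 1 was among the variable genes.

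Summed counts per library and class were tested with edgeR 4.0.16 (R 4.3.3, TMM, filterByExpr, quasi-likelihood, Benjamini-Hochberg adjusted p at 0.05) where each library had 50 cells. The spread comes from 2 KLF2 libraries. DESeq2 1.42.0, RLE factors and other filters were alternatives. On counts simulated for the compartment and T/NK-like cells with a fixed spread, the edgeR test found most of the largest changes put in. Its recovery of smaller changes is not given here. The odds ratio was tried on simulated cells of equal depth with set means, not modelled on these classes. There it told a linked pair from independent ones. The comparisons treat mice as replicates, and no p-value was taken from cells. Shares have Wilson 95% intervals and levels exact Poisson intervals. Up to 4 called genes of each other list, by mean CPM, were named, and the 5 genes most like Sox2, Lgr5 and Prox1, without predicted, mitochondrial and ribosomal protein genes. A few genes that these rules named are not reported here. The members, lists and tests were chosen with earlier results of these data known.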

Additional observations from a re-analysis of the deposited data

Results flagged for a closer look

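Sox11 went one way in 1 class of cells and the opposite way in the others. In endothelial-like cells it had 17.7 and 20.8 CPM in KLF2 replicates 1 and 2, both under the 27.3 CPM of vector replicate 2, while in the compartment and 5 other classes both KLF2 libraries were above the vector library. The difference between classes was not tested.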

How the results depend on the processing

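No paired analysis was possible because the groups share a single replicate number among the libraries with a matrix. By CPM all 9 members were higher in both KLF2 compartments, with either KLF2 library alone (9 and 9) and under the other cell filters and clusterings, but 8 were without mitochondrial and rRNA-overlapping genes, where Sox9 turned to a mean log2 ratio of -0.17. In the fits Sox9 was below 0 throughout, from -0.42 to -0.15. The mean log2 ratio of Sox11 ranged from 1.90 to 6.62 and that of Msx1 from 2.77 to 8.91, the lowest values coming from resolution 2.0. Lgr5 ranged from 5.0 to 7.81, where low values can be bounds, since a vector count of 0 enters as 3 UMIs. Called genes of the compartment numbered 2635 higher and 2116 lower, 2251 and 2435 with DESeq2 and 3912 and 2699 without the filter on low counts, and the median log2 difference of all genes ran from 0.41 (DESeq2) to 1.75 (no filter) around 0.67. Calls outside the compartment numbered 40 of 48, against 27 with DESeq2 (3 of the 13 lost have no adjusted p there) and 33 of 41 with at most 10% mitochondrial UMIs, where neutrophil-like cells were too few. Msx1 in endothelial-like cells turned to -0.068 there, and Sox11 in endothelial-like cells passed the test without the filter (-0.998). Of 35 list genes that the naming rule took, Epcam alone lost its call. Pairs with an odds ratio over 1 in both KLF2 libraries numbered 20, 35 without thinning, and 21 to 26 with 1 KLF2 library, and pairs under 1 numbered 9, 0 without thinning, 1 within clusters, and 10 to 15 with 1 library. Mean log2 odds ratios turned within clusters for Sox9 with Msx1 (0.32) and Sox11 (0.10), and without thinning for Hmga2 with Bex1 (0.51), Lgr5 with Bex1 (1.24) and Sox4 (1.31), Prox1 with Sox9 (0.85), Sox11 with Hmga2 (0.47), and Sox9 with Bex1 (1.21), Msx1 (0.99) and Sox11 (0.94). The clusters led by Hbb-bs and Malat1 were left out as an alternative added after seeing the data, which gave 19 pairs over and 10 under 1. The cause of these changes was not tested. The 1 vector library and its few deep compartment cells limit every comparison with it.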

Other observations

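At Leiden resolution 2.0, 128 vector cells without a name joined the compartment, 125 of them endothelial-like at resolution 1.0. Their endothelial markers summed to 3808 CPM. They held 92.4 CPM of Sox11, 80.2 CPM of Msx1 and 99.996 CPM of Sox4, with 4.72 CPM of Prox1, 1.89 CPM of Sox2 and no UMI of Lgr5. Vector endothelial-like cells as a whole had 27.3 CPM of Sox11 and 12.6 CPM of Msx1.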
